A study of Mus musculus with 12 samples.

Results

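The respiratory chain genes of dorsal root ganglia, where the cell bodies of peripheral sensory neurons lie, were compared between YAC Q84 and wild-type (WT) mice. Members were chosen by symbol: the 13 protein-coding genes of the mitochondrial genome, and nuclear genes whose symbols begin with Ndufa, Ndufb, Ndufc, Ndufs, Ndufv, Uqcr, Cox4 to Cox8 or Atp5, or are Sdha to Sdhd. The rule matched 120 genes, 9 were left out for pseudogene symbols, and 111 remained of 35534 genes with a matched transcript: 13 mitochondrially encoded and 98 nuclear-encoded. The nuclear-encoded members fell into 39 of complex I, 4 of complex II, 8 of complex III, 21 of complex IV, 18 of complex V and 8 complex I assembly factors, whose symbols (Ndufaf1 to Ndufaf8) also begin with Ndufa. Of them 4 (Ndufb4c, Ndufa11b, Ndufs6b and Cox6c2) are annotated as processed pseudogenes, and 2 identifiers share the symbol Atp5o.

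Poly(A) RNA was sequenced in 12 libraries of 24-week-old mice: 6 labelled Q84 (1 male and 5 female) and 6 labelled WT (3 male and 3 female). YAC Q84 mice carry the human ATXN3 gene with an expanded CAG repeat on a yeast artificial chromosome, as a model of spinocerebellar ataxia type 3, beside their own Atxn3. The labels do not give the strain, the copy number of the transgene, or whether each library came from its own animal, so the spread behind the p-values is that of libraries, which may be technical.

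The respiratory chain moves electrons from NADH through complex I, or from succinate through complex II, over complex III and cytochrome c to complex IV, where oxygen is reduced, and complex V uses the resulting proton gradient to make ATP. Complexes I, III, IV and V are mosaics of both genomes, while complex II is wholly nuclear-encoded. In the mosaics the mitochondrion encodes subunits of the membrane core, and the nucleus encodes the accessory subunits and further core subunits. The mitochondrial genes are transcribed as long RNAs from both strands and cut into messages, most of which end in a poly(A) tail. Sensory neurons have very long axons and high energy demand, and peripheral nerve is a tissue in which defects of these complexes cause disease.

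Total estimated counts ran from 67984268 to 77222088 in Q84 libraries and from 66490481 to 86891563 in WT libraries. Pan-neuronal markers, 15 in all, summed to between 9239 and 10722 CPM (counts per fixed library total, scaled with the TMM method) in Q84 libraries and between 9915 and 12037 CPM in WT libraries, so the labelled tissue was borne out by its neurons. A pair of libraries went against their labels in 1 short Atxn3 transcript that takes up reads of the transgene: it stood at 0.0612 TPM (transcript abundance per unit of length) in the library labelled Q84 female 5 against 62.7 to 79.4 TPM in the other Q84 libraries, and at 34.0 TPM in the library labelled WT female 2 against 0 to 0.285 TPM in the other WT libraries. The main comparisons are therefore given for the 12 libraries as labelled and for the 10 left without this pair. In RNA of a whole tissue, more cells of a type and more RNA per cell cannot be told apart.

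Per unit of length most mitochondrially encoded genes stood far above the nuclear-encoded ones, though mt-Nd5 lay below the highest of those. The mean level of mitochondrially encoded genes over 12 libraries ran from 1616 TPM for mt-Nd5 to 32196 TPM for mt-Atp8. The 77 nuclear-encoded subunits outside the tissue-restricted isoforms and pseudogenes ran from 54.0 TPM for Atp5s to 1972 TPM for Ndufa4, with a median of 446 TPM. Atp5s was counted among them though it is classed apart from the structural parts of complex V, as its factor B. Among mitochondrial genes, the 7 of complex I (median 6780 TPM) lay below mt-Cytb of complex III (14422 TPM) and below the 3 of complex IV (27164 to 29634 TPM). The 2 genes of complex V, mt-Atp6 and mt-Atp8, stood at 28306 and 32196 TPM. The value of mt-Atp8 rests on its short effective length, the length that TPM divides by, which averaged 49.0 bases. In CPM, mt-Atp8 averaged 1161, between 447 for mt-Nd6 and 27678 for mt-Co1. Among nuclear-encoded genes complexes II and I stood lowest, and the median was 262 TPM for complex II, 346 TPM for complex I, 478 TPM for complex III, 717 TPM for complex V and 994 TPM for complex IV. Within complex II the catalytic subunit Sdha (328 TPM) was 2.11 times the membrane anchor Sdhc (155 TPM). The complex I assembly factors, which are not part of the finished enzyme, stood lower, from 23.1 TPM for Ndufaf6 to 85.5 TPM for Ndufaf2.

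**Figure D1:**
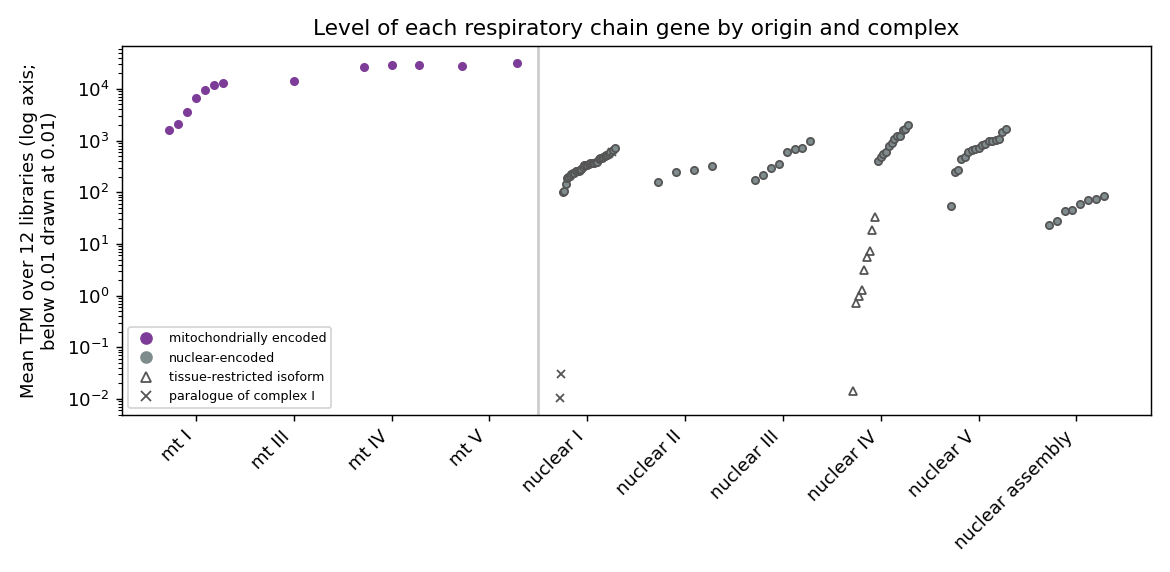
Mean TPM over 12 libraries (log axis) of each member, by origin and complex. The 13 mitochondrially encoded genes lie between 1616 and 32196 TPM, and open triangles mark tissue-restricted isoforms of complex IV, all at 33.3 TPM or less.

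Mitochondrially encoded subunits took a larger share of the RNA in Q84 libraries. They held a lowest share of 8.91%, a median of 10.02% and a highest of 11.9% of estimated counts in Q84 libraries, against 6.85%, 7.66% and 9.55% in WT libraries, so the groups overlapped through Q84 male 1 and Q84 female 1 at the low end and WT male 1 at the high end. The mean share was 10.1 ± 1.15% in Q84 libraries and 7.89 ± 0.943% in WT libraries (SD, n = 6 each), which is 1.29 times as much. The nuclear share was taken over the 90 nuclear-encoded members other than the assembly factors. These held 1.83 ± 0.129% of counts in Q84 libraries and 1.78 ± 0.102% in WT libraries (SD, n = 6 each), a fold of 1.03, well within the spread between libraries. In the 10 libraries the fold was 1.23 for the mitochondrial share and 1.03 for the nuclear share. No p-value is given for these shares, since they are sums over the chosen members.

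The fold of the mitochondrial share was largest for complex I, a difference among complexes that was not tested. The mitochondrial share of complex I was 2.48 ± 0.311% in Q84 libraries and 1.76 ± 0.178% in WT libraries, 1.41 times as much, against folds of 1.296 for complex III, 1.296 for complex V and 1.23 for complex IV (SD, n = 6 each). In the 10 libraries these folds were 1.35, 1.26, 1.22 and 1.18. Set against the nuclear-encoded counts of the same library and complex, mitochondrially encoded complex I counts were 4.05 to 6.05 times as many in Q84 libraries and 2.92 to 3.90 times as many in WT libraries, with no overlap between the groups. For all complexes together the ratio was 4.95 to 7.02 in Q84 libraries and 3.92 to 5.05 in WT libraries, and these ranges overlapped. Q84 female 5, a library that went against its label, was highest in both ratios (6.05 and 7.02), and without it the highest Q84 ratio was 5.13 for complex I and 5.60 over all complexes.

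**Figure D2:**
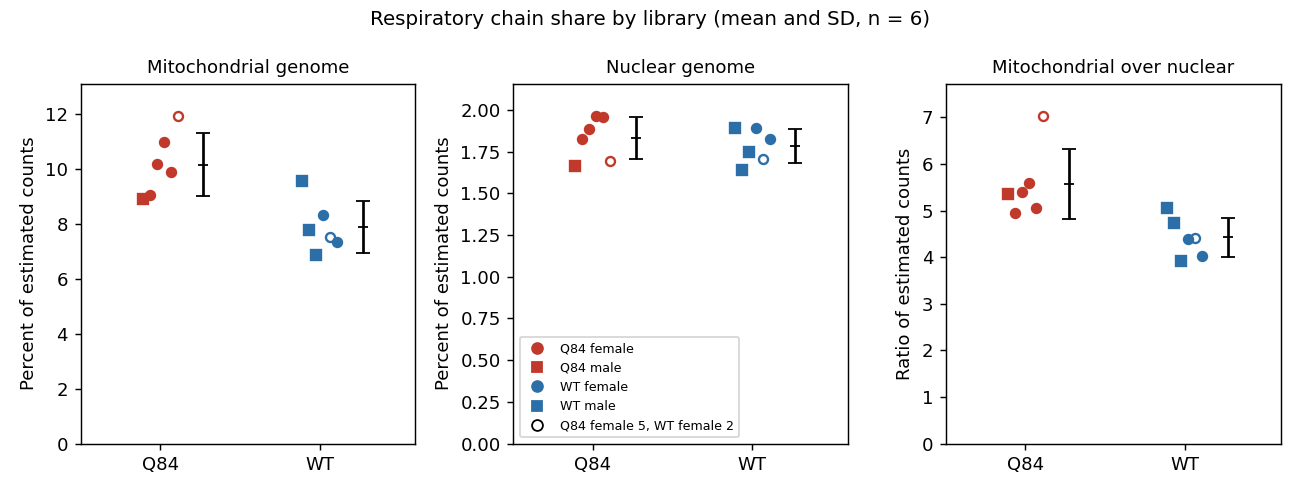
Share of estimated counts held by mitochondrially encoded members and by nuclear-encoded members other than the assembly factors, and the ratio of these counts, mitochondrial over nuclear, for each library, with mean and SD. The mitochondrial share averages 10.1% in Q84 libraries and 7.89% in WT libraries, while the nuclear share averages 1.83% and 1.78%.

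Gene by gene, all 13 mitochondrial genes had a log2 fold change above 0 in the 12 libraries, as 52.7% of all genes did, but none passed the test. Of 106 members tested, 0 were called (edgeR quasi-likelihood test, adjusted p under 0.05 over 18868 genes), where the background was 0.0053% of all genes, a single gene. At an unadjusted p under 0.05, 11 members were higher in Q84 libraries, each of them mitochondrially encoded, and 1 was lower, against 5.7% and 8.56% of all genes. The median log2 fold change was 0.38 for the 13 mitochondrial genes and 0.02 for the 93 nuclear-encoded genes tested, beside 0.01 for all genes. DESeq2 on the same counts called 7 members among 620 genes (3.29%). In that test 6 of them rose in Q84 libraries, mt-Nd1, mt-Nd2, mt-Nd3, mt-Nd4, mt-Nd5 and mt-Nd6, against 0.885% of all genes, and 1 fell, Atp5d, against 2.4% of all genes.

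**Figure D3:**
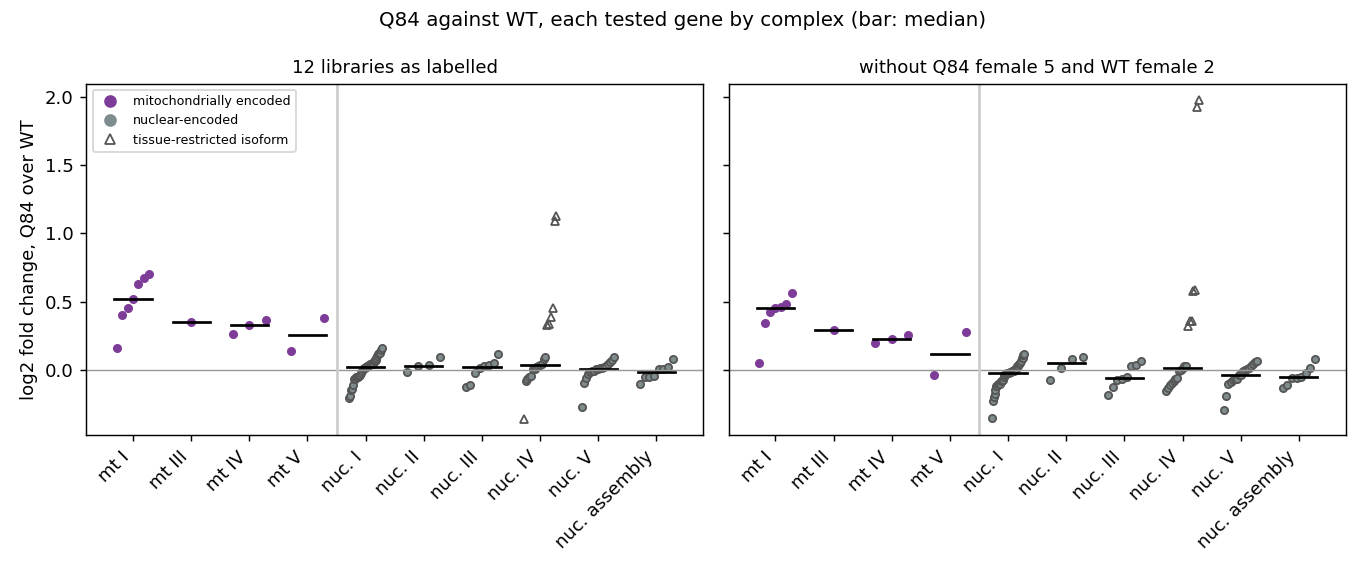
Log2 fold change of Q84 over WT for each tested member, by origin and complex, in the 12 libraries as labelled and in the 10 without Q84 female 5 and WT female 2, with the median of each group as a bar. The medians of mitochondrial complex I are 0.52 and 0.46, and those of nuclear complex I are 0.02 and -0.03.

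The 7 mitochondrial genes of complex I encode the membrane arm that pumps protons. The gene mt-Nd2 had a lowest value of 2108 CPM, a median of 2514 CPM and a highest of 3914 CPM in Q84 libraries, against 1296, 1563 and 1926 CPM in WT libraries. Every Q84 library lay above every WT library, and the highest, Q84 female 5, stood apart from the rest. It was the only member whose groups did not overlap in this direction in 12 libraries, where 0.413% of all genes did so, and its log2 fold change was 0.70 (SE 0.15, edgeR, adjusted p = 0.100).

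In the 10 libraries mt-Nd2 rose in Q84 libraries, by a log2 fold change of 0.56 (SE 0.12, edgeR, adjusted p = 0.0135). It was the single member called of 106, while 1207 of 18714 genes (6.45%) were called, 285 of them higher (1.52%) and 922 lower (4.93%). The call was lost without Q84 male 1 or without WT female 3, and over the 10 fits that each left out 1 library the adjusted p ran from 0.00581 to 0.126. A share of called members below that of all genes is no result about the members.

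The other genes of complex I overlapped between the groups. The gene mt-Nd1 held 7049 to 9554 CPM with a median of 7928 CPM in Q84 libraries and 4980 to 7110 CPM with a median of 5848 CPM in WT libraries. All Q84 libraries lay above the WT mean, and only Q84 male 1 fell below the highest WT library. Its log2 fold change was 0.45 (SE 0.11, edgeR, adjusted p = 0.108), and in the 10 libraries 0.42 (adjusted p = 0.0792).

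The gene mt-Nd5 held 1589 to 3475 CPM with a median of 2151 CPM in Q84 libraries and 1272 to 1881 CPM with a median of 1405 CPM in WT libraries. Its log2 fold change was 0.63 (SE 0.18, edgeR, adjusted p = 0.146), and 0.48 in the 10 libraries (adjusted p = 0.0839). The gene mt-Nd4, at 7541 to 11802 CPM in Q84 libraries and 5437 to 7590 CPM in WT libraries, had a log2 fold change of 0.40 (SE 0.12, edgeR, adjusted p = 0.149), and 0.34 in the 10 libraries.

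The gene mt-Nd6 is the only member transcribed from the light strand, and it reads back over the end of mt-Nd5. The bases that both annotated transcripts cover, in opposite directions, are in capitals in the last 40 bases of each (GENCODE M21, mitochondrial genome, 5′ to 3′).
mt-Nd5: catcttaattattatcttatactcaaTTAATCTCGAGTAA
mt-Nd6: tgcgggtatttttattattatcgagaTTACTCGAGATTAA
The overlap is 14 bases by annotation. No source used here gives the strand of counting, so reads of one strand could be placed on a gene of the other. The value of mt-Nd6 is uncertain for that reason. Not every mitochondrial message ends in a poly(A) tail, and how far poly(A) selection took up that of mt-Nd6 was not tested. The level of mt-Nd6 was 339 to 905 CPM with a median of 525 CPM in Q84 libraries and 264 to 438 CPM with a median of 325 CPM in WT libraries. The groups overlapped, and the log2 fold change was 0.68 (SE 0.22, edgeR, adjusted p = 0.204), and 0.46 in the 10 libraries (adjusted p = 0.170). Per unit of length, mt-Nd6 stood at 1.18 to 1.41 times mt-Nd5 in Q84 libraries and at 1.13 to 1.29 times in WT libraries.

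The gene mt-Nd3 has a nearly identical copy in the nuclear genome, Gm28438 on chromosome 1, one of several copies of mitochondrial sequence there. Over 345 aligned bases they differ by 1 substitution, T3C, counted from the first base of mt-Nd3 and given as the base of mt-Nd3, the position and the base of Gm28438. The first 33 bases of each are shown 5′ to 3′ with the differing base in capitals, because reads beyond it cannot be assigned to either gene by sequence.
mt-Nd3: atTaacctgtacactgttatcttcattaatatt
Gm28438: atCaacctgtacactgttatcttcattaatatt
Gm28438 was listed at 3396 to 5459 TPM in Q84 libraries and at 3260 to 4725 TPM in WT libraries, which is 0.488 to 0.700 times mt-Nd3 in Q84 libraries and 0.514 to 0.904 times in WT libraries. The gene mt-Nd3 itself held 651 to 962 CPM with a median of 852 CPM in Q84 libraries and 474 to 795 CPM with a median of 552 CPM in WT libraries. Q84 male 1 was lowest among Q84 libraries and WT male 1 highest among WT libraries, and the others did not overlap. Its log2 fold change was 0.52 (SE 0.14, edgeR, adjusted p = 0.138), and 0.46 in the 10 libraries (adjusted p = 0.134). Summed with Gm28438 it stood at 12408 ± 1285 TPM in Q84 libraries and 9527 ± 1138 TPM in WT libraries (SD, n = 6 each).

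Copies of at least 99% identity over at least 290 bases were found for mt-Co1 (its 3′ part), mt-Co2, mt-Co3, mt-Nd3, mt-Nd4, mt-Nd4l and mt-Atp6. For mt-Nd2 the nearest copy in the annotation was 96.7% identical over 510 bases. With the copies' counts added to their genes, 0 members were called in 12 libraries. The other copies' levels stand among the other observations.

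The genes of complexes III and IV had smaller log2 fold changes than most of complex I, a difference that was not tested. The gene mt-Cytb, the only mitochondrial subunit of complex III, held 9247 to 12783 CPM with a median of 10612 CPM in Q84 libraries and 6744 to 10430 CPM with a median of 8346 CPM in WT libraries. Its log2 fold change was 0.35 (SE 0.12, edgeR, adjusted p = 0.224), and 0.29 in the 10 libraries. The catalytic core of complex IV is encoded by mt-Co1, mt-Co2 and mt-Co3. The gene mt-Co1 held 26166 to 35115 CPM in Q84 libraries and 22948 to 30295 CPM in WT libraries, with a log2 fold change of 0.26 (SE 0.11, edgeR, adjusted p = 0.307). The log2 fold changes of mt-Co2 and mt-Co3 were 0.36 and 0.33 (SE 0.13 and 0.15), with overlapping groups. In the 10 libraries the 3 genes stood between 0.19 and 0.26.

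The annotated genes mt-Atp8 and mt-Atp6, whose products are membrane subunits of complex V, overlap on the same strand, and so do mt-Nd4l and mt-Nd4. The shared bases are in capitals in the last 60 bases of the first gene and the first 60 of the second, because a read within them belongs to both annotated genes.
mt-Atp8: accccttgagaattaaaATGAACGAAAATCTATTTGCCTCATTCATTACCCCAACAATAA
mt-Atp6: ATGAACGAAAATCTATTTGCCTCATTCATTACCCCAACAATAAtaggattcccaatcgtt
mt-Nd4l: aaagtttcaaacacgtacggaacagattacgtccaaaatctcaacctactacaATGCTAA
mt-Nd4: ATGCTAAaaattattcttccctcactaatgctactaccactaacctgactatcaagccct
The shared stretch is 43 bases for mt-Atp8, which is 204 bases long, and 7 bases for mt-Nd4l, which is 297 bases long.

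The log2 fold changes of the short genes lay closer to 0 than those of their longer partners, a difference that was not tested. The gene mt-Atp8 held 950 to 1471 CPM in Q84 libraries and 823 to 1255 CPM in WT libraries, a log2 fold change of 0.14 (SE 0.13, edgeR, adjusted p = 0.686) that turned to -0.04 in the 10 libraries. The gene mt-Atp6 held 8200 to 13245 CPM in Q84 libraries and 7202 to 10277 CPM in WT libraries, a log2 fold change of 0.38 (SE 0.13, edgeR, adjusted p = 0.226) that was 0.28 in the 10 libraries. The TPM ratio of mt-Atp8 to mt-Atp6 was 1.03 ± 0.0646 in Q84 libraries and 1.29 ± 0.187 in WT libraries, and that of mt-Nd4l to mt-Nd4 was 1.12 ± 0.101 in Q84 libraries and 1.31 ± 0.0904 in WT libraries (SD, n = 6 each). In the 10 libraries the ratio of mt-Atp8 to mt-Atp6 was 0.984 to 1.11 in Q84 libraries and 1.16 to 1.49 in WT libraries, without overlap, and that of mt-Nd4l to mt-Nd4 was 1.03 to 1.267 in Q84 libraries and 1.265 to 1.42 in WT libraries. The log2 fold change of mt-Nd4l was 0.16 (SE 0.12, edgeR, adjusted p = 0.585), and 0.05 in the 10 libraries. The mean fragment length that the effective lengths imply was 232 to 243 bases in Q84 libraries and 213 to 243 bases in WT libraries, which exceeds the 204 bases of mt-Atp8, and the part of fragment length in these ratios was not tested.

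**Figure D4:**
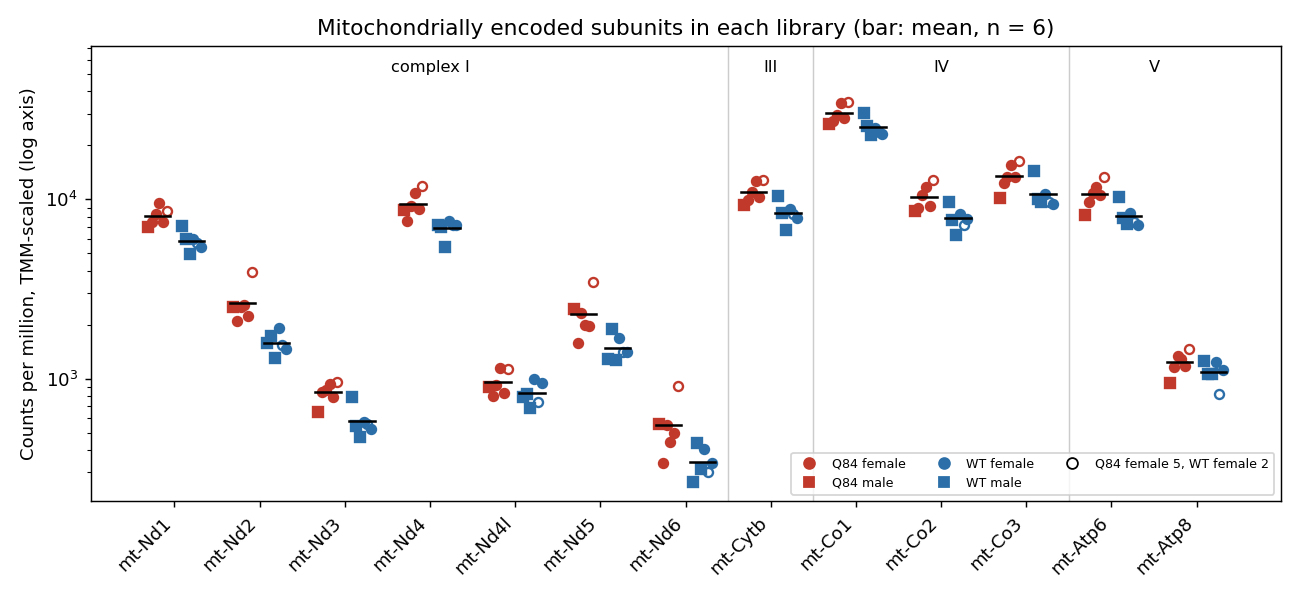
CPM (log axis) of the 13 mitochondrially encoded members in each library, Q84 to the left of WT for each gene, with the mean as a bar. In mt-Nd2 the Q84 libraries lie between 2108 and 3914 CPM and the WT libraries between 1296 and 1926 CPM, and in the other 12 genes the groups overlap.

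In the female libraries alone the median difference was larger, which was not tested. With all 8, 0 of 17241 genes were called by edgeR (0.0%; 1826 genes, 10.6%, at an unadjusted p under 0.05), and the median log2 fold change was 0.51 for mitochondrial and 0.10 for nuclear-encoded members. DESeq2 called 6 members there among 149 genes (0.864%). In the 6 female libraries left without Q84 female 5 and WT female 2, 3 mitochondrial genes rose, where 891 of 17395 genes (5.12%) were called, 229 of them higher (1.32%). They were mt-Nd3 with a log2 fold change of 0.66 (SE 0.099, edgeR, adjusted p = 0.0024), mt-Nd1 with 0.54 (SE 0.12, adjusted p = 0.0267) and mt-Atp6 with 0.47 (SE 0.11, adjusted p = 0.0378). The gene mt-Nd2 stood at 0.49 (adjusted p = 0.0516) in these 6 libraries. With the sexes compared in the 12 libraries, a lower difference in males was not particular to mitochondrial genes. It was seen in 83 of 93 nuclear-encoded members and in 8 of 13 mitochondrial genes. The median interaction of genotype and sex (log2) was -0.25 for nuclear-encoded members and -0.32 for mitochondrial genes, beside 0.01 for all genes. The test of the interaction of genotype and sex called 0 of 106 members (edgeR, 8 of 18868 genes, 0.0424%), and 14 members had an unadjusted p under 0.05, all with the lower difference in males, against 2.1% of all genes in that direction, which rests on 1 Q84 male.

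Markers of some other cell types also stood higher in Q84 libraries, and in 12 libraries none of them passed the test. Red blood cell markers, 7 in all, summed to 278 to 1852 CPM in Q84 libraries and 175 to 1045 CPM in WT libraries. All 7 were higher in Q84 libraries at an unadjusted p under 0.05, against 5.7% of all genes, with a median log2 fold change of 1.15, and 1.27 in the 10 libraries. Adipocyte markers, 9 in all, summed to 8.24 to 85.9 CPM in Q84 libraries and 8.09 to 18.05 CPM in WT libraries. All 9 had a log2 fold change above 0, with a median of 1.49, and 5 had an unadjusted p under 0.05. Their sum was highest in Q84 male 1 (85.9 CPM) and Q84 female 1 (32.4 CPM).

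Fibroblast markers, 8 in all, summed to 1085 to 1324 CPM in Q84 libraries and 850 to 1262 CPM in WT libraries, and 5 were higher at an unadjusted p under 0.05. Macrophage markers, 9 in all, summed to 59.4 to 115 CPM in Q84 libraries and 57.0 to 103 CPM in WT libraries, and 2 were higher at that p. Satellite glia markers, 8 in all, summed to 2518 to 3021 CPM in Q84 libraries and 2563 to 3055 CPM in WT libraries, and the 10 markers of Schwann cell myelin to 1922 to 3615 CPM in Q84 libraries and 2138 to 3787 CPM in WT libraries. At an unadjusted p under 0.05, 1 satellite glia marker was higher and 2 were lower, and 0 Schwann cell markers were either. The median log2 fold change of the 15 pan-neuronal markers was -0.14, with 12 below 0. Of these 15, 2 were lower and 0 higher at that p, against 8.56% and 5.7% of all genes. The 10 libraries gave 1 adipocyte, 1 fibroblast and 1 satellite glia marker that rose and 1 pan-neuronal marker that fell (edgeR), against 1.52% and 4.93% of all genes. No marker on these lists was at 0 in every library. Their part in the mitochondrial difference was not tested.

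Nuclear genes of the chain are known to be driven by the factors NRF1 and GABP, an ETS protein, through short sites near the start of transcription. RefSeq promoter windows (GRCm38.p6, 250 bases before the start and 50 from it on) matched 67 of 85 nuclear-encoded subunits. The letters GCGCATG, part of the palindromic NRF1 site, were found on either strand in 13 of the 67 genes (19.4%), against 5.4% of 17492 protein-coding genes and 3.91% of all 32851 windows. The ETS letters CCGGAAG were found in 16 of the 67 (23.9%), against 12.9% of the protein-coding genes and 8.86% of all windows. Both stood in 6 of the 67 (8.96%), against 1.03% of the protein-coding genes. At least 1 of them stood in 34.3% of the 67 and in 17.2% of the protein-coding genes. None of the 4 matched tissue-restricted isoforms held either one, and 4 genes are too few to tell this from those shares.

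Of the members whose matches before the start all lay within 80 bases, the one of highest level in each complex is shown, as 80 bases upstream of the start on the strand of the gene, with matches in capitals (CTTCCGG is the ETS motif on the other strand).
Ndufa11, complex I, chr17:56717682-56717761, plus strand: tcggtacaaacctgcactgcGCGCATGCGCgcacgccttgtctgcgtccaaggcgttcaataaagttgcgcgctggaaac
Sdhd, complex II, chr9:50603850-50603929, minus strand: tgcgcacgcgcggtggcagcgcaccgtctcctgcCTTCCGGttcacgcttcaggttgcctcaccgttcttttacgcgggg
Uqcrh, complex III, chr4:116075071-116075150, minus strand: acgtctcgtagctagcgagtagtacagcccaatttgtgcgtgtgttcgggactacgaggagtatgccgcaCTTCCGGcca
Cox6b1, complex IV, chr7:30626115-30626194, minus strand: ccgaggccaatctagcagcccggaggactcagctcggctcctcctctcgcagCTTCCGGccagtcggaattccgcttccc
Atp5h, complex V, chr11:115419920-115419999, minus strand: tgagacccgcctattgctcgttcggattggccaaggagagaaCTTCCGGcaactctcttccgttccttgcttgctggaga
In Ndufa11 the NRF1 letters matched on both strands and the matches overlapped. The mean levels of these genes were 474 TPM for Ndufa11, 274 TPM for Sdhd, 994 TPM for Uqcrh, 1218 TPM for Cox6b1 and 1047 TPM for Atp5h.

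Nuclear-encoded members showed no called difference between the genotypes in edgeR. None of the 93 tested was called in the 12 libraries, where 0.0053% of all genes were, or in the 10 libraries, where 6.45% were. In 12 libraries the median log2 fold change was 0.02 for complex I, 0.03 for complex II, 0.02 for complex III, 0.03 for complex IV, 0.01 for complex V and -0.02 for the complex I assembly factors. In the 10 libraries these medians ran from -0.06 for complex III to 0.05 for complex II. In the 8 female libraries 78 of the 93 had a log2 fold change above 0 and 15 below, with a median of 0.10, and none was called. The difference was lower in males for 83 of the 93, which rests on 1 Q84 male. In the 12 libraries, at an unadjusted p under 0.05, none of the nuclear-encoded members was higher in Q84 libraries and 1 was lower, against 5.7% and 8.56% of all genes.

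That gene was Atp5d, the delta subunit of the F1 head of complex V. It held 114 to 140 CPM with a median of 129 CPM in Q84 libraries and 129 to 170 CPM with a median of 155 CPM in WT libraries. The groups overlapped, all 6 Q84 libraries lay below the WT mean, and the log2 fold change was -0.28 (SE 0.079, edgeR, adjusted p = 0.141), and -0.30 in the 10 libraries (adjusted p = 0.0788). The catalytic beta subunit Atp5b, in contrast, held 1442 to 1889 CPM in Q84 libraries and 1649 to 1933 CPM in WT libraries, a log2 fold change of -0.01 (SE 0.079, edgeR, adjusted p = 0.971). The 3 genes for the c ring (Atp5g1, Atp5g2 and Atp5g3), which encode one and the same mature protein, stood at -0.09, 0.00 and -0.01.

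Among nuclear subunits of complex I the smallest p in 12 libraries belonged to the accessory subunits Ndufa10 and Ndufa8. Ndufa10 held 87.3 to 117 CPM in Q84 libraries and 104 to 139 CPM in WT libraries, a log2 fold change of -0.19 (SE 0.089, edgeR, adjusted p = 0.352) that was -0.20 in the 10 libraries. Ndufa8 held 94.96 to 112 CPM in Q84 libraries and 108 to 122 CPM in WT libraries, a log2 fold change of -0.14 (SE 0.067, edgeR, adjusted p = 0.369) that was -0.15 in the 10 libraries. The accessory subunit Ndufb3, picked after its values were seen, had a log2 fold change of -0.36 in the 10 libraries (SE 0.10, edgeR, adjusted p = 0.0654), which passed without Q84 female 3 or without WT male 1. Its level was 108 to 172 CPM in Q84 libraries and 125 to 178 CPM in WT libraries. The 7 nuclear-encoded core subunits of complex I had a median log2 fold change of -0.05, against 0.52 for the 7 mitochondrial core subunits of the same enzyme.

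The annotated processed pseudogene Ndufb4c was listed at 5.78 to 6.80 times the TPM of its parent gene Ndufb4 over the 12 libraries, so the reads of this subunit cannot be divided between them with certainty. Ndufb4 held 43.5 to 64.3 CPM in Q84 libraries and 45.1 to 57.8 CPM in WT libraries (log2 fold change 0.12, SE 0.11, edgeR, adjusted p = 0.646), and Ndufb4c held 63.3 to 92.7 CPM in Q84 libraries and 67.6 to 83.96 CPM in WT libraries (log2 fold change 0.01). Summed, they stood at 718 ± 52.8 TPM in Q84 libraries and 703 ± 37.0 TPM in WT libraries (SD, n = 6 each).

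Complex II, the succinate dehydrogenase of the citric acid cycle, has no mitochondrial subunit. Sdha held 519 to 698 CPM in Q84 libraries and 573 to 653 CPM in WT libraries (log2 fold change 0.03, SE 0.081), and Sdhc held 144 to 175 CPM in Q84 libraries and 135 to 168 CPM in WT libraries (log2 fold change 0.10, SE 0.078, edgeR, adjusted p = 0.620). In complex III, the core protein Uqcrc1 held 125 to 192 CPM in Q84 libraries and 161 to 182 CPM in WT libraries (log2 fold change -0.13, SE 0.092), and the small hinge protein Uqcrh, the highest of the complex, stood at 0.03 (SE 0.10). None of the nuclear-encoded genes of either complex had an unadjusted p under 0.05 in the 12 libraries.

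Several subunits of complex IV exist as a widespread form and a form of muscle or another tissue. In the 4 pairs compared the restricted form stood below the widespread one in every library, by a margin that differed between subunits. The TPM of Cox7a1 was 0.0287 to 0.101 of that of Cox7a2 in Q84 libraries and 0.0285 to 0.0572 in WT libraries. The TPM of Cox8b reached 0.0932 of that of Cox8a in Q84 libraries and 0.0309 in WT libraries, and the TPM of Cox6a2 reached 0.0409 of that of Cox6a1 in Q84 libraries and 0.0123 in WT libraries, with Q84 male 1 the highest in all 3 ratios. The TPM of Cox4i2, a form of lung and hypoxic tissue, was 0.00138 to 0.00319 of that of Cox4i1 in Q84 libraries and 0.00129 to 0.00191 in WT libraries. Cox4i1 itself held 549 to 687 CPM in Q84 libraries and 581 to 696 CPM in WT libraries, a log2 fold change of -0.05 (SE 0.076, edgeR, adjusted p = 0.820). Ndufa4, a complex IV subunit despite its symbol, held 412 to 622 CPM in Q84 libraries and 470 to 603 CPM in WT libraries (log2 fold change 0.01, SE 0.11), and its paralogue Ndufa4l2 stood at 1.28 TPM on average (log2 fold change 0.33, SE 0.21). The testis forms Cox6b2, Cox7b2 and Cox8c had mean levels of 5.55, 0.727 and 0.0143 TPM. Cox6b2 did not overlap between the groups in the 10 libraries (1.19 to 1.71 CPM in Q84 libraries and 0.932 to 1.17 CPM in WT libraries), where 2.69% of all genes were higher in Q84 libraries without overlap, and its log2 fold change there was 0.36 (SE 0.19, edgeR, adjusted p = 0.321).

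The muscle forms Cox6a2 and Cox8b were highest in the libraries highest in skeletal muscle markers, whichever the genotype. Cox6a2 held 11.3 CPM in Q84 male 1 and 6.25 CPM in Q84 female 1 and 0.0260 to 1.34 CPM in the other Q84 libraries, against 3.23 CPM in WT male 1, 2.98 CPM in WT female 2 and 0.0945 to 1.16 CPM in the other WT libraries. The 14 skeletal muscle markers summed to 1543 CPM in Q84 male 1 and 922 CPM in Q84 female 1, against 437 CPM in WT male 1 and 642 CPM in WT female 2, and to no more than 234 CPM in any other library. The 4 libraries highest in the markers were thus the 4 highest in Cox6a2 and in Cox8b. The log2 fold changes of Cox6a2, Cox8b and Cox7a1 were 1.13 (SE 1.27), 1.09 (SE 1.23) and 0.39 (SE 0.23) in 12 libraries and -0.79, -0.45 and -0.09 without those 4, and none passed (edgeR, adjusted p = 0.748, 0.747 and 0.476 in 12 libraries). They were 1.98, 1.93 and 0.36 in the 10 libraries. All 7 tested tissue-restricted isoforms of complex IV had a log2 fold change above 0 there, and none passed (edgeR, lowest adjusted p = 0.218). In the 12 libraries 6 of the 7 did, where 52.7% of all genes did. Single libraries moved these values: that of Cox6a2 was 0.09 without Q84 male 1, 0.13 without Q84 female 1 and 1.90 without WT female 2, and that of Cox8b was 0.10, 0.28 and 1.86. That of Cox7a1 was 0.12 without Q84 male 1.

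**Figure D5:**
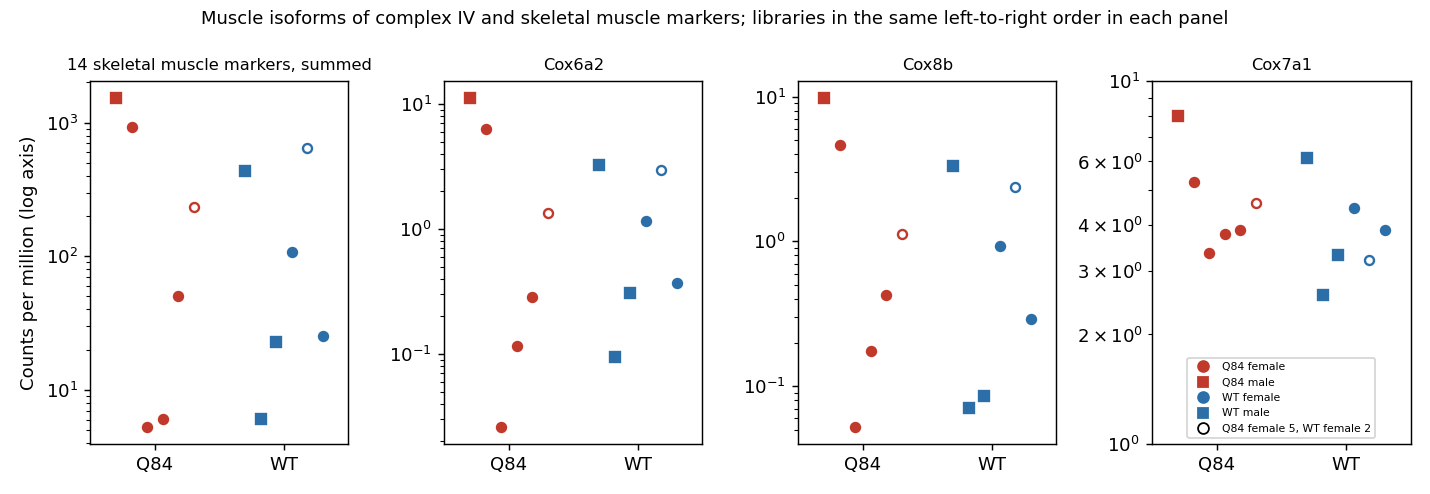
Summed CPM of 14 skeletal muscle markers and CPM of Cox6a2, Cox8b and Cox7a1 (log axes) in each library, with the libraries in the same order in each panel. Q84 male 1 and Q84 female 1 are highest in the markers (1543 and 922 CPM) and in Cox6a2 (11.3 and 6.25 CPM).

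Other mitochondrial genes were read from lists outside the rule, none of which had a called gene in 12 libraries. Of all genes 1.52% were called higher and 4.93% lower in the 10 libraries, so a single call on a list is no result about that list. There, 1 of 43 assembly factors rose: Tmem126a, a complex I assembly factor, held 19.2 to 30.8 CPM in the 12-library Q84 group and 16.5 to 20.8 CPM in the WT group, and its log2 fold change in 10 libraries was 0.56 (SE 0.11, edgeR, adjusted p = 0.011). Of 21 genes of mitochondrial RNA processing 1 fell: Lrpprc, whose protein stabilises mitochondrial messages, held 97.8 to 139 CPM in Q84 libraries and 131 to 151 CPM in WT libraries, with a log2 fold change of -0.36 in the 10 libraries (SE 0.071, edgeR, adjusted p = 0.0101) and -0.28 in 12 (adjusted p = 0.166). Of 18 genes of mitochondrial DNA replication and transcription 1 rose, the primase-polymerase Primpol, with 0.38 in the 10 libraries (SE 0.090, edgeR, adjusted p = 0.0271).

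Of 6 uncoupling proteins and relatives 1 fell in the 10 libraries, the carrier Slc25a30. It held 35.9 to 44.6 CPM in Q84 libraries and 53.0 to 70.8 CPM in WT libraries, without overlap in 12 libraries, where 1.15% of all genes were lower in Q84 libraries without overlap. Its log2 fold change was -0.55 in 12 libraries (SE 0.086, edgeR, adjusted p = 0.0595) and -0.62 in 10 (adjusted p = 0.00102). None of 21 regulators of respiratory genes, 17 citric acid cycle enzymes, 20 membrane proteins used as markers of mitochondrial mass or 11 electron carriers and further subunits was called in the 10 libraries. Tfam, which packages and transcribes mitochondrial DNA, stood at 0.05 in 12 libraries (SE 0.079), and the median of the mass markers was -0.01. The electron carrier cytochrome c, Cycs, had a log2 fold change of 0.17 (SE 0.094, edgeR, adjusted p = 0.426), and Cyc1, cytochrome c1 of complex III, -0.20 (SE 0.062, adjusted p = 0.180).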

How the data were processed

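Poly(A) RNA of 12 dorsal root ganglion libraries was quantified by the authors. Per the file headers, each deposited table gives a transcript's effective length, its estimated count (not whole, not scaled between libraries) and its TPM, which the authors' quantifier scales to length and a fixed total. kallisto 0.46.2, STAR 2.7.10b and GRCm39 are named, without roles, per the submitters' processing notes. Transcripts were joined to genes by identifier in GENCODE M21, an annotation of GRCm38, so no coordinates but those of the RefSeq windows are given. Of the transcripts 98.3% matched, and unmatched ones held 0.756 to 0.807% of counts.

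Estimated counts were summed per gene, rounded, filtered with filterByExpr (minimum count 10), given TMM factors and fitted in edgeR 4.0.16 under R 4.3.3 by quasi-likelihood (robust; sex and genotype as terms, genotype alone in females) with Benjamini-Hochberg adjustment over all genes tested and a threshold of 0.05. Of the 111 members 5 (Ndufa11b, Ndufs6b, Cox6c2, Cox8c and the second Atp5o identifier) fell below the filter. CPM are TMM-scaled.

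Members, gene lists and the rule for named genes were chosen with earlier results of these data known. The rule named all mitochondrial genes, and in each nuclear group the genes that passed (up to 8), else the 2 of smallest p, with the highest and lowest by TPM and the isoform families; in other lists up to 4 that passed, else 2. Outside the rule, Sdhd, Ndufa11 and Atp5h were taken for their RefSeq promoters (GRCm38.p6), and Atp5b, Ndufb3, Ndufb4c, Cycs, Tfam, Gm28438 and Gm28661 after their values were seen. Alternatives were DESeq2 1.42.0, limma-voom (limma 3.58.1), RLE scaling, scaling without mitochondrial genes, no filter, no sex term, leaving out each library, a block for replicate number, and counts rebuilt from length-scaled TPM. Between libraries of a group the lowest chi-square per degree of freedom was 30.9, so none was a repeat sequencing of another in its group. Libraries of different groups were not compared, and the value cannot show whether libraries came from separate animals.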

Additional observations from a re-analysis of the deposited data

Results flagged for a closer look

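Among 50 results checked for a library that stands apart from its group, 4 were flagged because the gap to the nearest other library took up most of the group's range, and chance flags about 1 in 20 groups. Each lies among the 5 Q84 female libraries. The TPM of mt-Nd2 was 6225 in Q84 female 5, the highest of the group, and that of the complex I assembly factor Ndufaf1 was 52.5 TPM in the same library, the lowest of the group. Q84 female 5 is also the library without the Q84 level of the short Atxn3 transcript. The muscle isoforms Cox6a2 and Cox8b stood at 19.0 TPM and 42.1 TPM in Q84 female 1, highest of the group in both and the female library highest in skeletal muscle markers (922 CPM). What set these libraries apart was not tested.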

How the results depend on the processing

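The mitochondrial share of counts in Q84 libraries was 1.24 to 1.34 times that in WT libraries with each library left out. Without both doubted libraries it was 1.23 times. As a share of TPM it was 1.21 times in the 12 libraries and 1.16 times without both doubted libraries. The median log2 fold change of the 13 mitochondrial genes in the 12 libraries was 0.28 to 0.54 under the alternatives run on it, and with 1 more library left out of the 10 it was as low as 0.21 (without WT female 3). Calls did not hold as well. Of members, 0 were called in the 12 libraries, against 7 with DESeq2, 2 without the sex term, 1 without both doubted libraries (mt-Nd2) and 0 to 3 with each library left out (3 without Q84 female 5: mt-Nd1, mt-Nd2 and mt-Nd5; 1 without WT male 1: mt-Nd3). In the 8 female libraries 0 were called, against 6 with DESeq2, 3 without both doubted libraries and 0 to 5 with each library left out (5 without Q84 female 5). Replicate numbers did not pair the female libraries (correlations of deviations -0.00759, -0.128 and 0.09). A replicate block could be fitted only to the 8 libraries whose sex and replicate number occur in both genotypes. It called 0 members in these 8 and 1 in the females among them (mt-Nd3), and fewer libraries and the block cannot be told apart there. Of genes on the other lists 0 were called, against 1 with no filter on low counts, 3 with DESeq2, 4 without both doubted libraries, 2 without the sex term and 0 to 4 with each library left out (4 without Q84 female 5). The cause was not tested.

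Genes that did not pass and lie near 0 changed sign. Without both doubted libraries, log2 fold changes turned to -0.0385 for mt-Atp8, -0.0188 for Ndufb8, -0.0512 for Uqcrh, -0.066 for Ndufa4, -0.0567 for Ndufaf6, -0.0069 for Cox6b1, -0.0614 for Cox7a2, -0.002 for Atp5g2 and 0.5879 for Cox7b2. Without the 4 libraries highest in muscle markers, a setting added after the data were seen, they turned to -0.0207 for Sdha, 0.0345 for Atp5mpl, 0.0204 for Ndufaf2, -0.7868 for Cox6a2, -0.0936 for Cox7a1, 1.3913 for Cox7b2, -0.4493 for Cox8b, -0.0658 for Atp5g2 and 0.0255 for Atp5g3. With the replicate block they were -0.0201 for Uqcrh, -0.015 for Ndufa4, -0.0053 for Cox7a2 and 0.068 for Cox7b2. Without the sex term they were 0.0003 for Atp5mpl, 0.0441 for Cox7b2, 0.0203 for Cox8a and 0.0156 for Atp5g3. With length-scaled TPM they were 0.0092 for Cox8a and 0.0266 for Atp5g3. With limma-voom Atp5g2 stood at -0.0013, and Atp5g3 stood at 0.0039 with scaling without mitochondrial genes and at 0.0022 with no filter. With each library left out the ranges were -0.0218 to 0.1172 for Ndufb8, -0.0354 to 0.1687 for Uqcrh, -0.0632 to 0.1659 for Ndufa4, -0.1661 to 0.0854 for Atp5mpl, -0.0543 to 0.0704 for Ndufaf6, -0.1047 to 0.0086 for Cox4i1, -0.0215 to 0.1117 for Cox6b1, -0.0501 to 0.1752 for Cox7a2, -0.1471 to 0.026 for Cox7a2l, -0.7733 to 0.4618 for Cox7b2, -0.035 to 0.0412 for Atp5g2 and -0.0583 to 0.0594 for Atp5g3. Fragment counts limit genes under about 1 CPM, such as Cox7b2.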

Other observations

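Nuclear copies of mitochondrial sequence were counted beside the respiratory chain. Gm29216, which matches the 3′ part of mt-Co1 with 99.8% identity over 483 bases, reached 317 to 4889 TPM in Q84 libraries and 184 to 773 TPM in WT libraries. Its log2 fold change was 2.31 (SE 0.80, edgeR, adjusted p = 0.236), and 1.63 in the 10 libraries (adjusted p = 0.2805). Q84 female 5 had the highest CPM of the 12 libraries. Gm28661, chosen after its values were seen and identical to mt-Co2 over 681 bases, was listed at 83.1 to 2334 TPM in Q84 libraries and 42.7 to 1927 TPM in WT libraries, a wide spread within each genotype. Gm28439, identical to part of mt-Nd4, was listed at no more than 0.0107 TPM in any Q84 library and no more than 1.42 TPM in any WT library, a gene of few reads. All the copies of at least 99% identity together held 0.119 ± 0.0596% of counts in Q84 libraries and 0.078 ± 0.0245% in WT libraries (SD, n = 6 each), and whether those reads came from the mitochondrial or the nuclear sequence cannot be told apart.

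Among symbols left out as pseudogenes, Ndufb1-ps stood at 249 TPM on average, within the range of nuclear complex I subunits (99.8 to 733 TPM), while the other 8 stood at 0.639 TPM or less.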
